A study of Mus musculus with 13 samples.

Results

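Levels of 6 genes were followed through spontaneous immortalization of mouse embryonic fibroblasts (MEFs): the 4 INK4 inhibitors Cdkn2a, Cdkn2b, Cdkn2c and Cdkn2d, the CIP/KIP inhibitor Cdkn1b, and Mtap, which lies beside Cdkn2a. The genes were chosen by name out of 55487 genes counted, and all 6 passed the filter on low counts in every comparison. RNA-seq was performed on 13 poly-A libraries: 3 primary and 3 immortalized cultures of wild-type (WT) clones 3, 4 and 5, and 3 primary cultures (clones 13, 14 and 15) and 4 immortalized lines (13, 13a, 14 and 15) labelled Prkd3-/-. All MEFs were grown in 10% FCS, and senescent cultures were moved to 20% FCS until colonies grew out, so each immortalized line descends from colonies that outgrew senescence. Lines 13 and 13a carry the same clone number. The genotypes were deposited as separate tables, so genotype and table cannot be told apart.

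INK4 proteins bind CDK4 and CDK6 and keep cyclin D from activating them, which leaves the retinoblastoma protein in its growth-restraining form. Cdkn2a also encodes ARF from its own first exon in another reading frame, and ARF holds MDM2 away from p53. Serial culture of MEFs is known to induce products of this locus, and immortal MEF lines typically lose either ARF or p53 function. Cdkn1b encodes p27, which inhibits cyclin E and CDK2 and is degraded after recognition by SKP2. Mtap encodes the enzyme that recycles methylthioadenosine, a by-product of polyamine synthesis, and is often deleted together with the neighbouring inhibitors in tumours.

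Cdkn2a (ENSMUSG00000044303) spanned chr4:89274471-89294653 on the minus strand of GRCm38 in 4 merged exon blocks. The block at chr4:89294334-89294653 holds the first exon of ARF (exon 1β), and the block at chr4:89281986-89282192 holds the first exon of p16Ink4a (exon 1α). Counts per gene add both transcripts together, so p16Ink4a and ARF could not be separated. Cdkn2b (ENSMUSG00000073802), which encodes p15Ink4b, lay 11.6 kb away at chr4:89306299-89311039 in 2 blocks. Mtap (ENSMUSG00000062937) lay on the plus strand at chr4:89137122-89181081 in 8 blocks, 93.4 kb from Cdkn2a. Cdkn2c (ENSMUSG00000028551, p18Ink4c) was farther along at chr4:109660876-109667189, Cdkn2d (ENSMUSG00000096472, p19Ink4d) at chr9:21288410-21291407 and Cdkn1b (ENSMUSG00000003031) at chr6:134920401-134925513. None of the 6 genes shared an exon base with another annotated gene.

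The 250 bases before the start sites at the Cdkn2a, Cdkn2b and Mtap locus are shown because Cdkn2a and Cdkn2b varied most between lines and Mtap, next to them, was high in line 13, where both were nearly absent. They were taken from RefSeq (GRCm38.p6), which matched all 6 genes with 8 start sites. They run 5′ to 3′ in the direction of each gene, with the GC box (GGGCGG, or CCGCCC on the other strand) in capitals. RefSeq starts differ from the counted gene models, so a window can overlap a counted exon block. The Mtap window lies almost wholly inside the first counted block (chr4:89137122-89137524). The window of the first Cdkn2c start site lies inside the block at chr4:109665610-109667189.

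ARF start of Cdkn2a (chr4:89294620-89294869, minus strand): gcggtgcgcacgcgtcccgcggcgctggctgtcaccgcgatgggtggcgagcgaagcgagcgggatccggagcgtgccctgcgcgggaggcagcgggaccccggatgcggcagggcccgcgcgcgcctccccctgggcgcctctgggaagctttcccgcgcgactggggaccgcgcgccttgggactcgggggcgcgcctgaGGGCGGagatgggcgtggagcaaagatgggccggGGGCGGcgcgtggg

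p16Ink4a start of Cdkn2a (chr4:89282193-89282442, minus strand): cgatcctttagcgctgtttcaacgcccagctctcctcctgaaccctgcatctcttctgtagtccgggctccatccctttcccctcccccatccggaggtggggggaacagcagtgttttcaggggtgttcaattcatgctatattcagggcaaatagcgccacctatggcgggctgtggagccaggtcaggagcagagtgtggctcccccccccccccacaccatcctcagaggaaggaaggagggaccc

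Cdkn2b start (chr4:89311033-89311282, minus strand): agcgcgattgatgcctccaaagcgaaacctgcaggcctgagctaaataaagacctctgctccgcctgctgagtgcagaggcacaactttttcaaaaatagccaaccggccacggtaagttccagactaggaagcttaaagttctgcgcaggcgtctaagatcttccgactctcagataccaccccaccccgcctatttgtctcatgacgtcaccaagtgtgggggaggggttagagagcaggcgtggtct

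Mtap start (chr4:89137120-89137369, plus strand): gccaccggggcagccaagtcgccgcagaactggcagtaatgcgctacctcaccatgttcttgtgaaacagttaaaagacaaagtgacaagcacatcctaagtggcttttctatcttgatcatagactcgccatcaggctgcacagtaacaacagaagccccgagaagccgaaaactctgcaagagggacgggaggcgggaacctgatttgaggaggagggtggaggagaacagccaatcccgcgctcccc

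The ARF window held 2 GC boxes and 40 CpG dinucleotides, and 98.7% of the 32851 RefSeq windows of this length held fewer CpGs. The p16Ink4a window held 0 GC boxes and 7 CpGs, close to the median of 6. The Cdkn2b window held 0 GC boxes and 12 CpGs, and the Mtap window 0 and 11. GC boxes were present in 32.7% of all windows. Among the other members, the Cdkn2d window held 3, the Cdkn1b window 1, and the start sites of Cdkn2c 3 and 0. The E-box (CANNTG, which reads as the same pattern on both strands) was found in 66.2% of windows and, among the members, in that of Cdkn2b only. TATAAA (or TTTATA) was found in 12.4% of windows and in none of the members' windows.

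Library totals ranged from 55436367 to 90654323 counts in WT and from 35273408 to 100441756 in libraries labelled Prkd3-/-, at which 3 counts correspond to 0.0277 to 0.0842 CPM (counts scaled to a common library size by TMM). Prkd3 itself was counted at 69.2 to 73.7 CPM in WT primary and 33.6 to 43.2 CPM in primary cultures labelled Prkd3-/-, and at 73.6 to 93.7 CPM and 43.8 to 61.0 CPM in the immortalized lines of the same labels. Counts summed over a gene do not show whether part of it was deleted. Pairs of WT primary libraries differed by 6.14 to 15.8 times the variance of pure counting, and pairs within each of the other groups by 61.3 to 1033 times. Fibroblast markers (8 genes) summed to between 18551 and 67788 CPM in every library. Macrophage markers (10 genes, none at 0 throughout a group) summed to 705 to 745 CPM in WT primary and 34.3 to 99.0 CPM in WT immortalized libraries, and to 95.1 to 1106 CPM and 10.4 to 185 CPM in those labelled Prkd3-/-. Endothelial markers (4 genes) summed to 10.7 to 15.7 CPM in WT primary and 0.371 to 1.95 CPM in WT immortalized libraries, and to 5.66 to 28.7 CPM and 1.55 to 17.3 CPM with the other label. Epithelial markers (4 genes) stayed at or under 4.30 CPM in every library. In bulk RNA, fewer cells of a type and less RNA per cell cannot be told apart, and the part of these markers in the values that follow was not tested.

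Per kilobase of exon, Cdkn2b and Cdkn2a were the most abundant members in primary WT MEFs. Their levels were 60.7 ± 1.60 and 51.2 ± 1.45 CPM per kb (SD, n = 3), followed by Mtap at 34.3 ± 0.512, Cdkn1b at 11.1 ± 0.503, Cdkn2c at 9.71 ± 0.670 and Cdkn2d at 8.43 ± 0.410. No neighbours in this order overlapped between WT primary libraries. In primary cultures labelled Prkd3-/- the ranges of Cdkn2a (54.6 to 73.3 CPM per kb) and Cdkn2b (55.9 to 60.5 CPM per kb) overlapped, as did those of Cdkn1b, Cdkn2c and Cdkn2d, which together spanned 6.24 to 11.7 CPM per kb. Mtap stood between them at 37.8 to 53.9 CPM per kb.

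**Figure D1:**
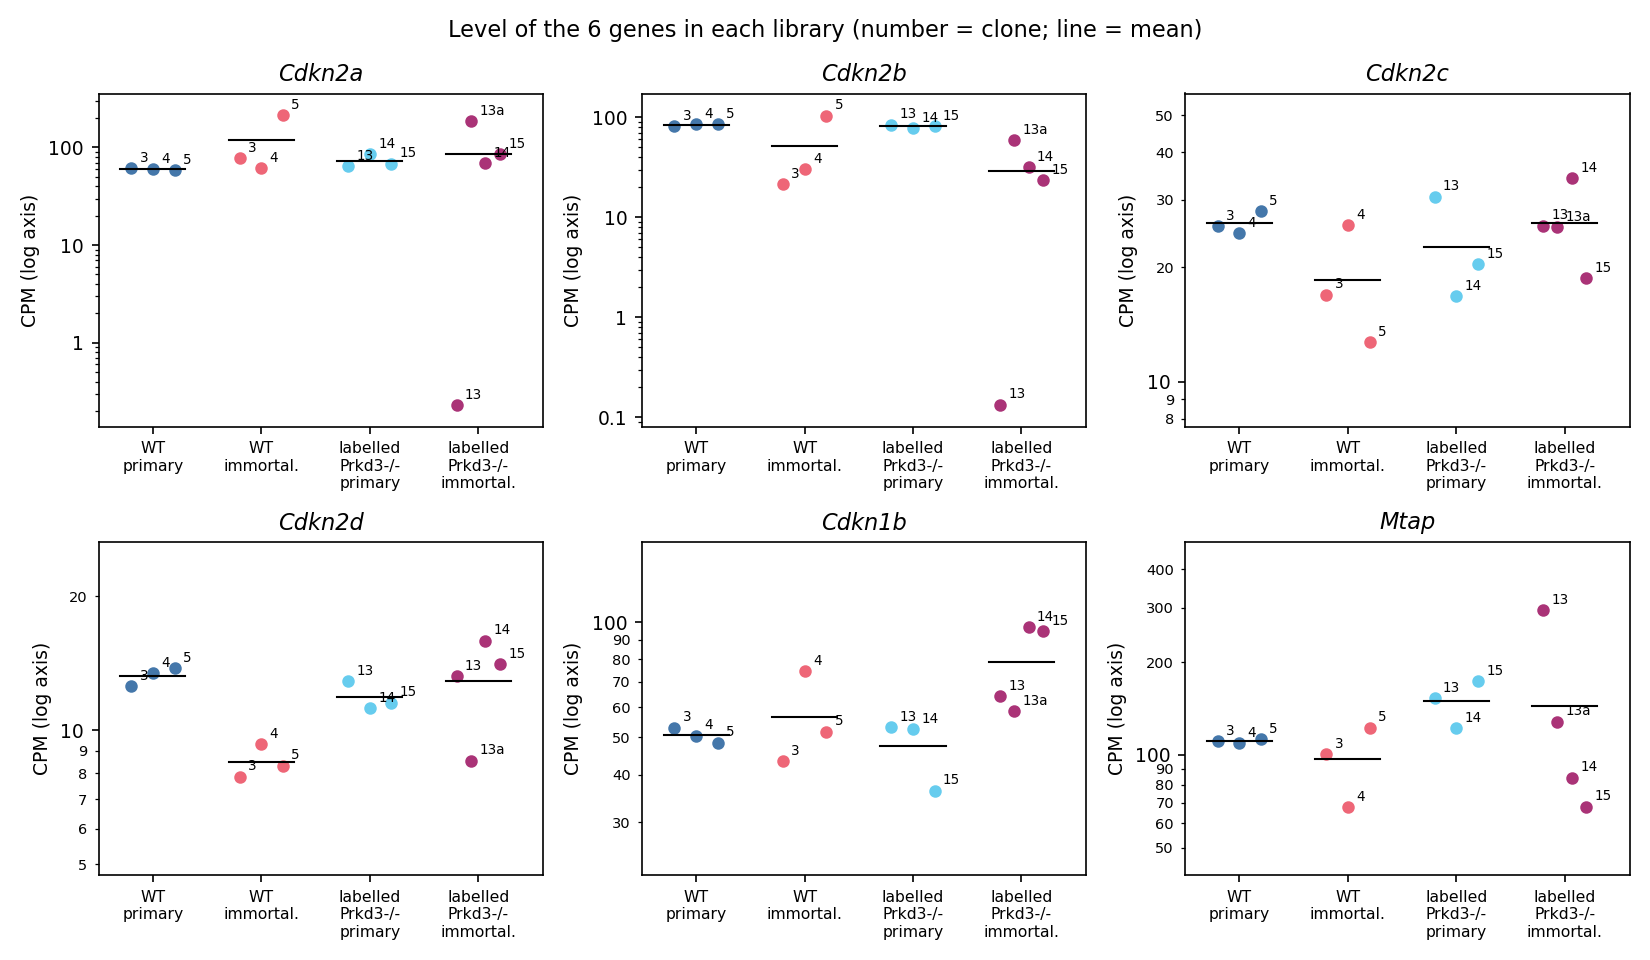
CPM of each gene in each of the 13 libraries on a log axis, by genotype label and state, with clone numbers beside the points and a line at each group mean. Line 13 lies at 0.229 CPM for Cdkn2a and 0.134 CPM for Cdkn2b, and at 294 CPM for Mtap.

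Cdkn2a was retained in all 3 immortalized WT lines. It was counted at 61.5, 60.3 and 58.1 CPM in primary WT clones 3, 4 and 5 and at 78.3, 61.0 and 214 CPM in the immortalized lines of the same numbers. Line 5 lay far above every primary culture, line 3 lay above them by less, and line 4 was within their range. The mean was 60.0 ± 1.70 CPM in primary and 118 ± 84.0 CPM in immortalized WT MEFs (SD, n = 3 each), a Log2FC of 0.98 (95% interval -0.22 to 2.17) with an adjusted p-value of 0.341 in edgeR's quasi-likelihood test. Without line 5 the Log2FC was 0.22.

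Cdkn2b, the partner gene in the locus, was low in 2 of 3 WT lines. Primary clones 3, 4 and 5 held 81.8, 85.9 and 85.4 CPM, against 21.4, 30.4 and 103.6 CPM in the lines. Lines 3 and 4 were below all primary cultures and line 5 was above them, so the groups overlapped. The Log2FC was -0.70 (95% interval -2.17 to 0.77, adjusted p-value 0.574). Without line 5 it was -1.70 with an adjusted p-value of 0.00704, and Cdkn2b then passed both thresholds used here (|Log2FC| of at least 1, adjusted p-value under 0.01), as did 3.66% of all genes tested in that fit.

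Cdkn2d, the INK4 member whose transcript is known to oscillate through the cell cycle, was the only member whose WT states did not overlap. It was counted at 12.6, 13.4 and 13.8 CPM in primary clones 3, 4 and 5 and at 7.86, 9.29 and 8.33 CPM in their immortalized lines. All 3 lines were lower, as were the lines for 17.4% of all genes tested, while lines above every primary culture were found for 13.9%. The Log2FC was -0.64 with an SE of 0.11 and an adjusted p-value of 0.0335, which did not reach 0.01, and the change was smaller than 2-fold. An adjusted p-value under 0.05 with no limit on size was reached by 5.27% of all genes. With the clone as a replicate block the adjusted p-value of Cdkn2d was 0.178, and in DESeq2 it was 0.000123.

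Cdkn2c, Cdkn1b and Mtap overlapped between the states in WT. Cdkn2c was counted at 25.6, 24.6 and 28.1 CPM in primary clones 3, 4 and 5 and at 16.9, 25.8 and 12.7 CPM in the lines, where lines 3 and 5 fell below the primary range. Its Log2FC was -0.50 (95% interval -1.14 to 0.14). Cdkn1b was counted at 53.0, 50.6 and 48.5 CPM in primary cultures and at 43.3, 74.6 and 51.8 CPM in lines, with one line on each side of the primary range and one inside it (Log2FC 0.16, 95% interval -0.35 to 0.67). Mtap was counted at 110.5, 109.2 and 112.5 CPM in primary cultures and at 100.3, 67.7 and 122.6 CPM in lines. Lines 3 and 4 were below the primary range of Mtap and line 5 above it (Log2FC -0.19, 95% interval -0.73 to 0.34). The adjusted p-values of these 3 genes were 0.366, 0.726 and 0.679. In WT as a whole, 0 of the 6 members passed both thresholds in edgeR, where 1.82% of genes passed, and 0 passed in DESeq2, where 5.94% passed. At an unadjusted p under 0.05 edgeR had 1 member, Cdkn2d, and 19.7% of all genes.

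Among the lines labelled Prkd3-/-, line 13 had almost no Cdkn2a transcript and line 13a of the same clone number had the most. Primary clones 13, 14 and 15 held 64.0, 85.9 and 68.2 CPM of Cdkn2a. Lines 13, 13a, 14 and 15 held 0.229, 187, 69.2 and 85.3 CPM. The value of line 13 rested on 12 counts, which is 317-fold below the primary mean (95% interval 182 to 614 from the exact Poisson interval of the counts, which covers counting error only). Lines 14 and 15 were inside the primary range and line 13a above it. The Log2FC of 0.23 had a 95% interval of -2.84 to 3.30 (adjusted p-value 0.984), and it was 0.64 without line 13 and -0.50 without line 13a.

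Cdkn2b was below every primary culture in all 4 of these lines. It was counted at 84.1, 77.6 and 81.2 CPM in primary clones 13, 14 and 15 and at 0.134, 59.2, 31.9 and 23.4 CPM in lines 13, 13a, 14 and 15. The value of line 13 rested on 7 counts and was 606-fold below the primary mean (95% interval 294 to 1508, counting error only). Lines below all primary cultures were found for 5.26% of genes tested with this label. The Log2FC was -1.50 with an SE of 1.21 and an adjusted p-value of 0.855. Without line 13 the immortalized mean was 38.2 ± 18.7 CPM (SD, n = 3), against 81.0 ± 3.24 CPM in primary cultures (SD, n = 3).

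Cdkn1b was above every primary culture in all 4 lines labelled Prkd3-/-. Its primary levels were 53.1, 52.7 and 36.3 CPM in clones 13, 14 and 15, and its levels in lines 13, 13a, 14 and 15 were 64.2, 58.5, 97.3 and 95.0 CPM. Lines above all primary cultures were found for 4.19% of genes. The Log2FC was 0.72 (95% interval 0.11 to 1.34) with an unadjusted edgeR p of 0.0265 and an adjusted p-value of 0.696.

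Mtap ran opposite to its neighbours in line 13. Primary clones 13, 14 and 15 held 152.7, 122.1 and 173.8 CPM, and lines 13, 13a, 14 and 15 held 294, 128, 84.4 and 67.9 CPM. Line 13 was the highest of all 13 libraries for Mtap, line 13a was within the primary range, and lines 14 and 15 were below it. The Log2FC was -0.08 (95% interval -1.23 to 1.08, adjusted p-value 0.986).

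Cdkn2c and Cdkn2d showed a narrower spread in these lines. Cdkn2c was counted at 30.6, 16.8 and 20.3 CPM in primary clones 13, 14 and 15 and at 25.7, 25.4, 34.2 and 18.7 CPM in lines 13, 13a, 14 and 15, of which only line 14 was outside the primary range (Log2FC 0.20, 95% interval -0.48 to 0.87). Cdkn2d was counted at 12.9, 11.2 and 11.5 CPM in primary cultures and at 13.2, 8.55, 15.9 and 14.1 CPM in lines. Line 13a was below the primary range of Cdkn2d and the other 3 were above it (Log2FC 0.11, 95% interval -0.48 to 0.71). With this label 0 members passed in edgeR, as did 0% of all genes, and 0 passed in DESeq2, where 0.781% of genes passed. At an unadjusted p under 0.05 edgeR had 1 member, Cdkn1b, and 6.56% of all genes.

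The effect of immortalization was compared between genotype labels by an interaction over all 13 libraries. Cdkn2d had the smallest p, with a difference in Log2FC of 0.76 (95% interval 0.13 to 1.40, unadjusted p 0.0219, adjusted p-value 1), since all 3 WT lines were below their primary cultures and 3 of 4 lines labelled Prkd3-/- were above theirs. The differences of Cdkn2c and Cdkn1b were 0.70 (95% interval -0.19 to 1.60) and 0.57 (-0.19 to 1.34). Those of Cdkn2a, Cdkn2b and Mtap were -0.75, -0.80 and 0.13, with intervals from -4.26 to 2.76, from -4.14 to 2.55 and from -1.23 to 1.50, so differences of several-fold in either direction were not detectable for Cdkn2a and Cdkn2b. An adjusted p-value under 0.05 was reached by 0 members and by 0% of genes in edgeR, which had 1 member and 3.97% of genes at an unadjusted p under 0.05, and by 0 members and 0.126% of genes in DESeq2.

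**Figure D2:**
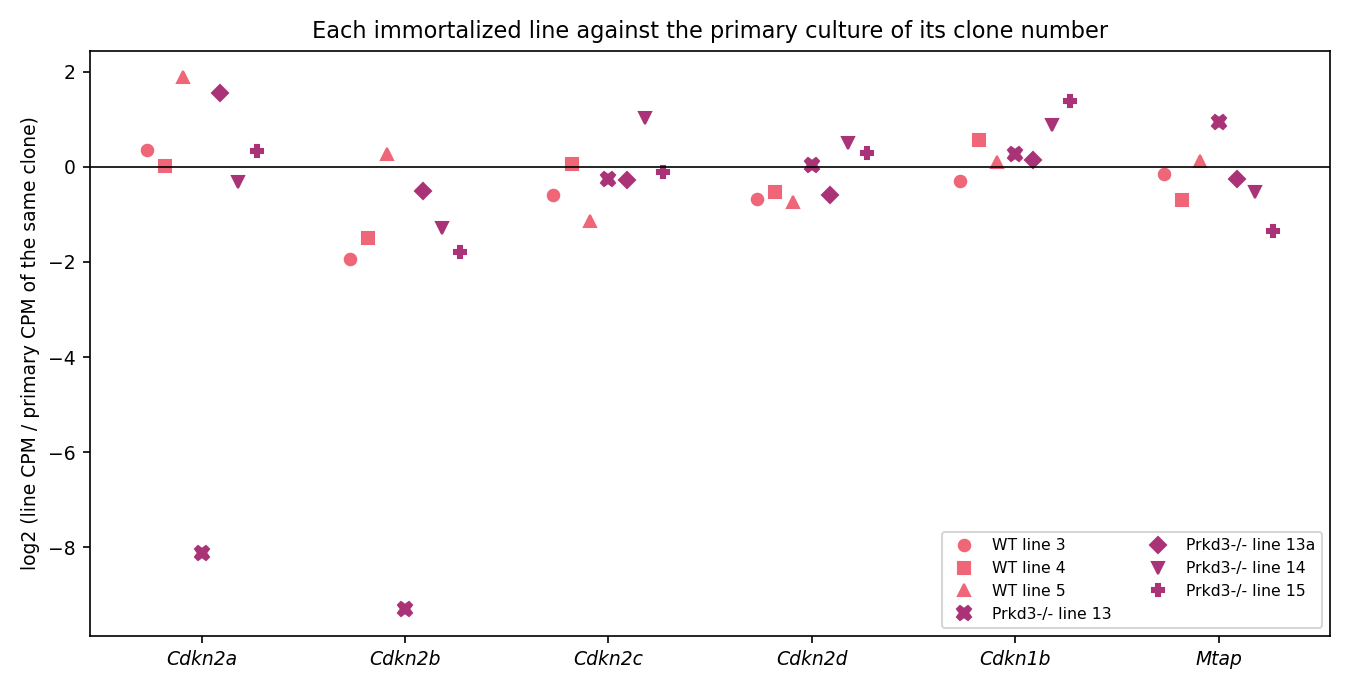
Log2 ratio of each of the 7 immortalized lines to the primary culture with the same clone number, for each gene (1 point per line, colours for the genotype label, line 13a set against primary clone 13). Cdkn2b was below its own primary culture in 6 of 7 lines, and line 13 stands at -8.13 for Cdkn2a and -9.30 for Cdkn2b.

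Set against the primary culture of its own clone number, Cdkn2b was lower in 6 of 7 lines and more than 2-fold lower in 5. Line 5 was the exception, at 1.21 times its primary culture, and line 13a was at 0.704 times that of clone 13. Cdkn2a was higher in 5 of 7 lines, by more than 2-fold in line 5 (3.69 times) and line 13a (2.92 times). Cdkn1b was higher in 6 of 7 lines and reached 2.62 times its primary culture in line 15. Mtap was lower in 5 of 7 lines, by more than 2-fold in line 15 only (0.391 times). Cdkn2d did not move by 2-fold in any line, with ratios from 0.603 to 1.42. Cdkn2c was more than 2-fold lower in line 5 (0.452 times) and more than 2-fold higher in line 14 (2.04 times). These ratios rest on 1 library per line and carry no test.

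The spread between lines was wide for the neighbouring inhibitors and narrow for Cdkn2d in WT. Genes past the filter on low counts with a mean of 10 CPM or more over the primary libraries numbered 10332. Among them, the SD of log2 CPM over the 3 WT lines was 0.96 for Cdkn2a and 1.19 for Cdkn2b. The SD exceeded that of 92.3% and 94.8% of genes. For Cdkn2d it was 0.12, against a median of 0.25 over genes. Over the 4 lines labelled Prkd3-/- the SD was 4.31 for Cdkn2a, 3.84 for Cdkn2b and 0.93 for Mtap, against a median of 0.42, which Cdkn2d at 0.39 was close to. In WT primary cultures the same SDs were 0.04 for Cdkn2a, 0.04 for Cdkn2b and 0.02 for Mtap, against a median of 0.05. In primary cultures labelled Prkd3-/- they were 0.22, 0.06 and 0.26, against a median of 0.19.

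Within a library, the proportion of Cdkn2a to Cdkn2b was higher in the lines than in the primary cultures. This ratio was computed after its values were seen, and it carries no test. How many other pairs of genes differ as much between the states was not counted. Per kilobase of exon, Cdkn2a was 0.892, 0.833 and 0.808 times Cdkn2b in WT primary clones 3, 4 and 5 and 4.35, 2.38 and 2.45 times in the WT lines. It was 0.903, 1.31 and 0.996 times in primary clones 13, 14 and 15 and 2.03, 3.74, 2.57 and 4.32 times in lines 13, 13a, 14 and 15. All 7 lines, from 2.03 to 4.35, were above all 6 primary libraries, from 0.808 to 1.31. The value of line 13 rested on 12 and 7 counts. Its 95% counting interval of 0.738 to 6.10 covers the whole primary range, so line 13 is not set apart from it. Without line 13 the lines ranged from 2.38 to 4.35. The line with raised Cdkn2a in WT (line 5) and that labelled Prkd3-/- (line 13a) had Cdkn2b at 1.21 and 0.704 times the primary culture of the same number, whereas lines 3, 4, 14 and 15 had Cdkn2a at 0.805 to 1.27 times and Cdkn2b at 0.261 to 0.412 times.

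**Figure D3:**
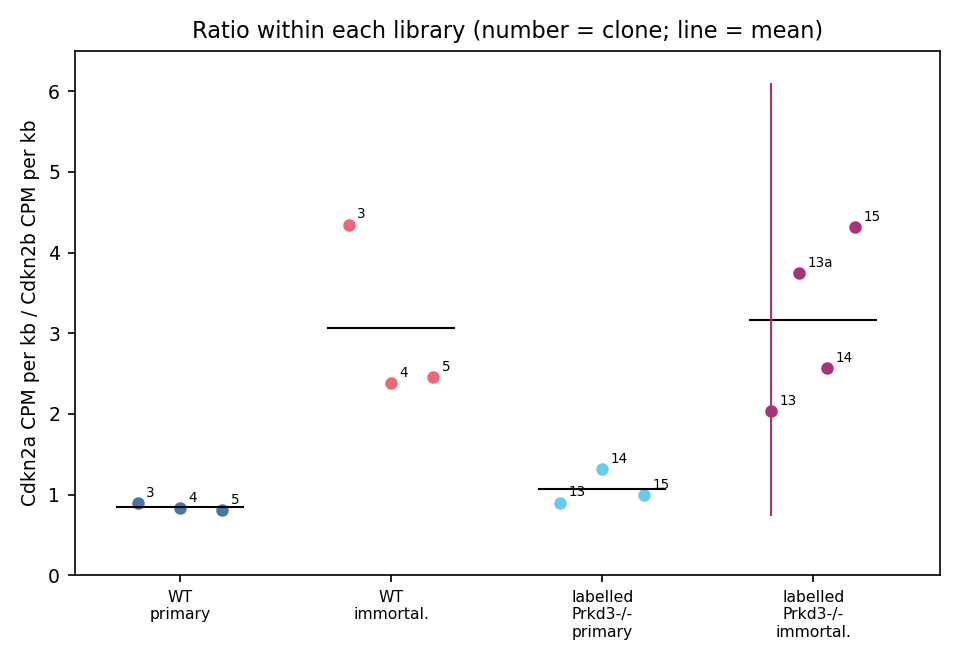
Ratio of Cdkn2a to Cdkn2b, each in CPM per kilobase of exon, in each library (number = clone, black line = group mean, vertical bar = 95% counting interval for line 13). The 6 primary libraries lie between 0.808 and 1.31 and the 7 immortalized lines between 2.03 and 4.35.

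The near absence of Cdkn2a and Cdkn2b in line 13 was set against all other genes in that library. Of 8391 genes at 10 CPM or more in each of the other 12 libraries, 31 were at least 10-fold below the lowest of them in line 13, and 4 were at least 100-fold below. Cdkn2a was first, at 254-fold below the lowest other library, and Cdkn2b second, at 160-fold. The same count of genes 10-fold below was 0 to 4 for each of the other 12 libraries. Line 13 also had the highest Mki67, a proliferation marker, at 511 CPM against 43.2 to 292 CPM in the others, and the 12 cycling markers summed to 3216 CPM in it against 331 to 1507 CPM. Its macrophage markers summed to 17.8 CPM, against 185 CPM in line 13a and 10.4 and 16.7 CPM in lines 14 and 15. The fibroblast markers of line 13 summed to 18551 CPM, the lowest of all libraries. How these values relate to the near absence of Cdkn2a and Cdkn2b was not tested.

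The genes beside Cdkn2a were then examined in line 13. Within 5 Mb, 24 genes other than Cdkn2a had a mean of at least 1 CPM, 20 on the Mtap side and 4 on the Cdkn2b side. In line 13, 10 of the 24 were below, 5 within and 9 above the range of the primary cultures labelled Prkd3-/-, and 0 passed both thresholds in WT or with the label in edgeR (5 and 1 at an unadjusted p under 0.05, as were 19.7% and 6.56% of all genes). DESeq2 called 1 in WT, Adamtsl1, which was seen only after the test (Log2FC -1.36, 2846 kb from Cdkn2a), and 0 with the label. Adamtsl1 lies on the Mtap side and was at 0.573 CPM in line 13, below the minimum of 21.2 CPM in primary cultures labelled Prkd3-/-. On the Mtap side the nearest were Mtap itself, Gm12602 (6.15 CPM in line 13, above the primary maximum of 5.41), Wincr1 (6.89 CPM, above 2.64), AL805899.1 (2.14 CPM, within), Gm26566 (13.4 CPM, below the minimum of 25.9) and Klhl9 (89.3 CPM, below 147.7). On the other side Cdkn2b was followed by Elavl2, 1956 kb from Cdkn2a, a neuronal RNA-binding protein gene with 0 counts in line 13 and in WT lines 3 and 4, then by Gm12669 (83.6 CPM, below 94.8) and Tusc1 (6.91 CPM, within). Of genes at lower levels within 250 kb, Gm12606, which lies 1.07 kb from Cdkn2a, had 0 counts in line 13 of 19 in all libraries. Gm12609, Gm12610 and Gm12608, 87.3 to 147.6 kb beyond Cdkn2a on the Cdkn2b side, had 0 counts in line 13 of 89, 136 and 12. In line 13a these genes had 3, 5 and 3 counts. On the Mtap side Gm26490 at 91.4 kb had 10 counts of 106 and AL805899.2 at 235 kb had 32 of 442. Also on that side, Tgif2-ps1 at 56.7 kb and Gm12607 at 112 kb had 0 counts in line 13 of 3 and 1. Totals of 19 counts or fewer over all libraries are too low for 0 counts in line 13 to be read. The 0 counts at the higher totals were not tested. Counts per gene do not show DNA, and whether the locus is present in line 13 was not tested.

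**Figure D4:**
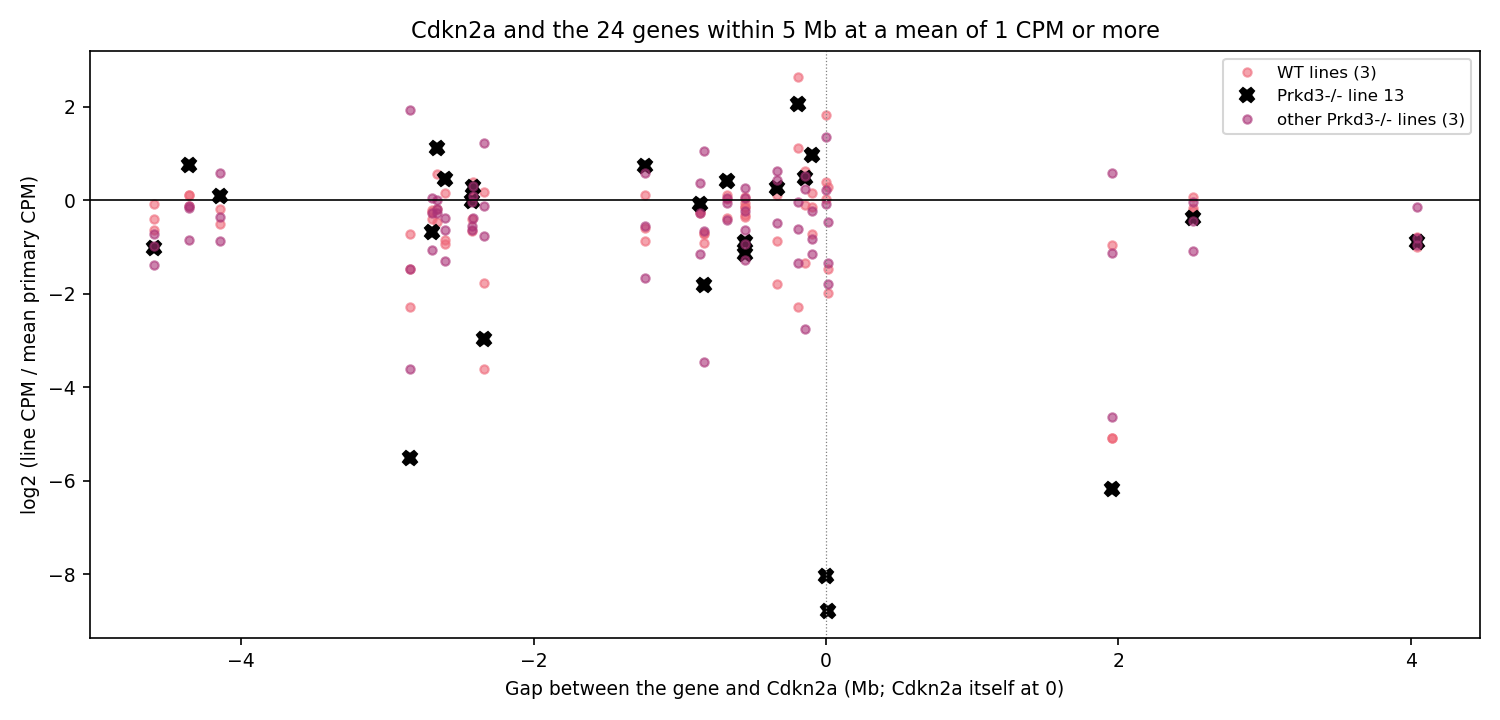
Log2 ratio of each immortalized line to the mean primary level of its genotype label, with 0.05 CPM added to both, for Cdkn2a (at 0) and the 24 genes within 5 Mb, by the gap to Cdkn2a in Mb (crosses = line 13, circles = the other 6 lines). Line 13 lies at -8.79 at Cdkn2b and at 0.98 at Mtap.

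The inhibitors' relatives and partners were described from 7 lists of 46 genes in all, with 0 of 46 called in either genotype by edgeR or DESeq2. At an unadjusted p under 0.05 edgeR had 6 of them in WT, where 19.7% of all genes were under it, and 2 with the label Prkd3-/-, where 6.56% were. The Log2FC was positive for 27 and negative for 19 of the 46 in WT, and positive for 33 and negative for 13 with the label. The median Log2FC of the lists ran from -0.84 (CIP/KIP relatives) to 0.16 (methionine salvage and polyamines) in WT, where the median over all genes was 0.04, and from -0.95 to 0.36 (ARF partners) with the label, where it was 0.07.

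Among the CIP/KIP relatives, Cdkn1a, which encodes the p53 target p21, had a Log2FC of -0.14 in WT and -1.05 (SE 0.42, adjusted p-value 0.73) with the label. Line 13 had the lowest Cdkn1a of all libraries, at 110 CPM against 411 CPM in primary clone 13. Cdkn1c, the imprinted gene of p57, had Log2FC values of -1.53 and -0.85 and was at 0.630 CPM in line 13. Without WT line 3 its WT Log2FC was -2.75 with an adjusted p-value of 0.00145, which passed both thresholds. In that fit 539 genes in all passed both, against 361 with no WT library left out. Over the 6 fits with a WT library left out, the adjusted p-values of Cdkn1c ran from 0.00145 to 0.591. Cdk4, the kinase bound by INK4 proteins, had 0.33 and 0.39, and Ccnd3, one of its cyclin D partners, had -0.40 and -0.09. The pocket protein genes Rbl1 and Rb1 had -0.53 and -0.17 in WT and 0.34 and 0.10 with the label. Trp53 had 0.19 and 0.47, and Mdm4, which restrains p53, had 0.16 and 0.29. Bmi1, a Polycomb repressor of the Ink4/Arf locus, was higher than every primary culture in all lines of both genotype labels. Its Log2FC values were 0.84 (adjusted p-value 0.0718) and 0.78 (adjusted p-value 0.485). Lines above every primary culture were found for 13.9% of all genes tested in WT and 4.19% with the label. In WT this also held for Cdk4, Zbtb7a and Kdm6b. Zbtb7a, a repressor of ARF, had 0.29 and 0.12. Tbx2, a T-box repressor of the locus, was below every primary culture in the 3 WT lines. Its levels there were 0.177 to 2.62 CPM against 9.95 to 11.4 CPM. In WT, lines below every primary culture were found for 17.4% of all genes tested. Of the listed genes, Cdkn1c, Ccnd3, Id1, Cks1b and Usp19 were also among them. The Log2FC of Tbx2 was -2.56 (SE 0.87, adjusted p-value 0.186) in WT and -0.65 (SE 1.06) with the label. Without WT line 3 the WT Log2FC of Tbx2 was -2.03 with an adjusted p-value of 0.00235, which passed both thresholds. The same held for 539 genes in all in that fit. Over the 6 fits with a WT library left out, the adjusted p-values of Tbx2 ran from 0.00235 to 0.464. Kdm6b, a histone demethylase that opposes Polycomb, had 0.32 and -0.05. Cks1b and Skp2, which mark p27 for degradation, had -0.49 and -0.36 in WT and 0.19 and 0.20 with the label. Amd1 of polyamine synthesis had 0.36 and 0.32, and the aminotransferase gene Got1 had 0.38 and 0.24. None of the values fitted on all libraries passed the thresholds.

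**Figure D5:**
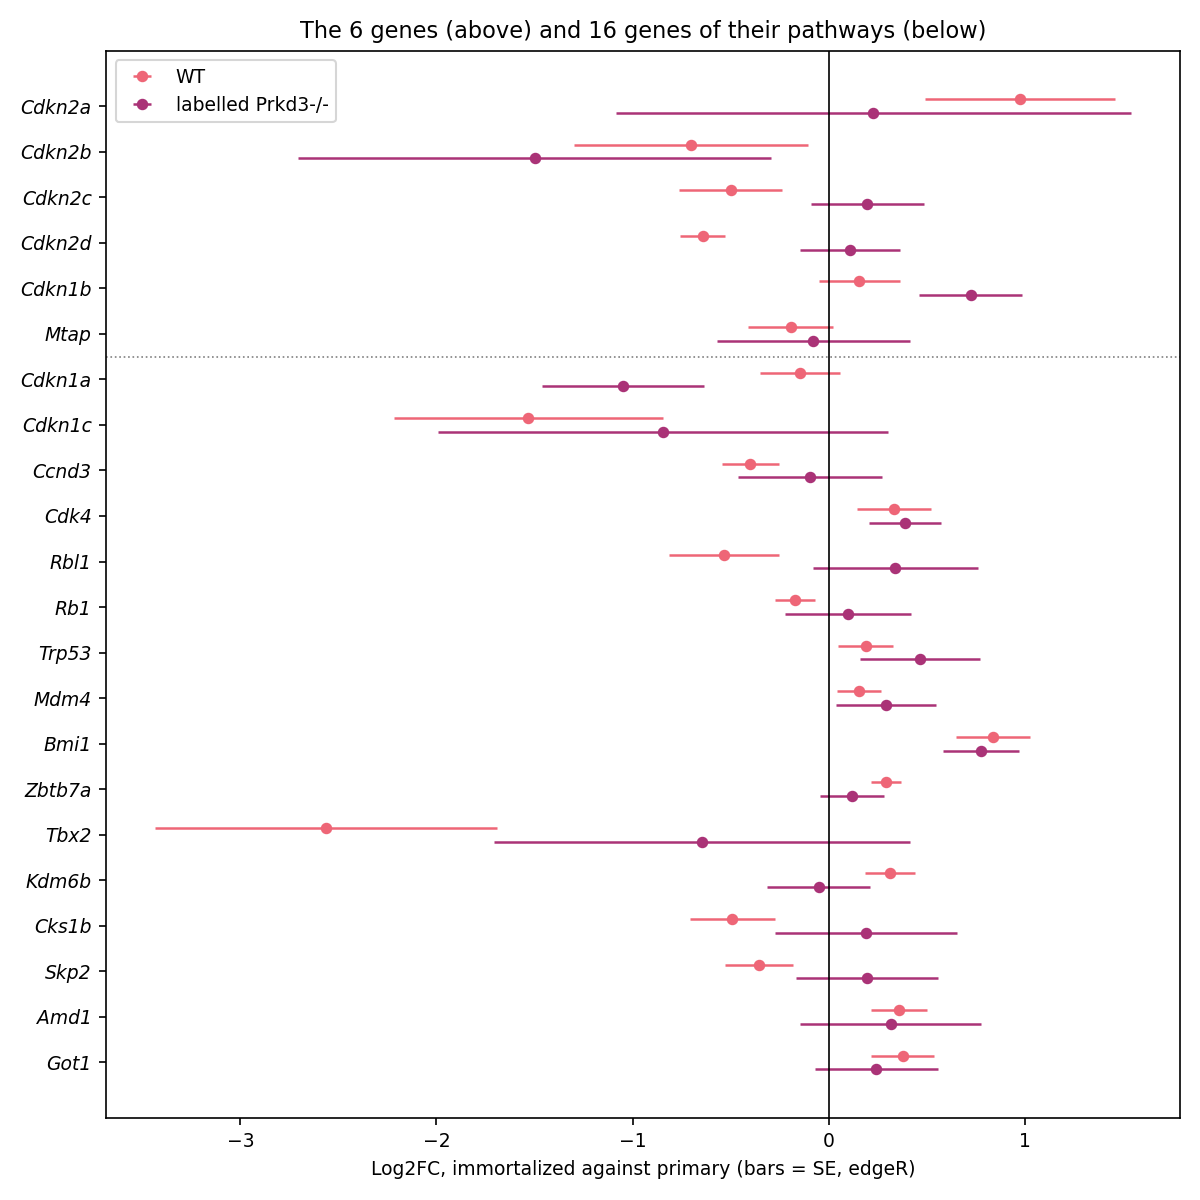
Log2FC of immortalized against primary MEFs with SE (edgeR) for the 6 genes and, below the dotted line, 16 genes of their pathways, in WT and in libraries labelled Prkd3-/-. The SE of Cdkn2a and Cdkn2b with the label (1.31 and 1.21) is the widest among the 6 genes, and Bmi1 lies at 0.84 and 0.78.

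Genes with the pattern most like that of a member were ranked by Pearson's r of log2 CPM over the 13 libraries, as a description without a test, over libraries that fall into 4 groups and 2 tables. Hykk, Zpbp and Pold4 were most like Cdkn2a (r = 0.98, 0.97 and 0.97), but over the 12 libraries without line 13 these were 0.60, 0.49 and 0.45. For Cdkn2b, 1700003M07Rik, Rps4l and Rhpn1 had 0.97 each, and 0.79, 0.84 and 0.73 without line 13. Slc12a7, Elovl5 and 8430406P12Rik were most like Cdkn2c (r = 0.89, 0.87 and 0.87, and 0.90, 0.88 and 0.87 without line 13). Gap43, Plch1 and Eif2b3 were most like Mtap (r = 0.95, 0.92 and 0.92, and 0.93, 0.86 and 0.88). Ranked anew without line 13, the top 3 kept 0 of these genes for Cdkn2a, Cdkn2b and Mtap, and 1 for Cdkn2c (Slc12a7). Between members, r of Cdkn2a with Cdkn2b was 0.93 over 13 libraries and 0.14 without line 13, and r of Cdkn2b with Mtap was -0.50 and 0.75.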

How the data were processed

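Read pairs of 100 bases were not reprocessed. The authors deposited raw counts per gene in a table for the WT and a table for the Prkd3-/- libraries. Per the labels STAR 2.7.10a, SAMtools 1.18, Subread 2.0.6 (featureCounts) and FastQC 0.12.0 were used, and for WT the authors counted fragments on Ensembl genes (GRCm38) without regard to strand, assigning a pair to every gene it overlapped. Counting options for the other table are not given in the sources used here.

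Counts were analysed as deposited. Each genotype was fitted with edgeR 4.0.16 (TMM, its filter on low counts, robust quasi-likelihood test) in R 4.3.3 over all genes, with Benjamini-Hochberg adjusted p-values under 0.01 and |Log2FC| of at least 1, and the interaction over all libraries at 0.05. The SE is the Log2FC over the square root of F, and 95% intervals use the t distribution. DESeq2 1.42.0, limma 3.58.1, other scalings, filters, blocks and left-out libraries were alternatives. CPM is TMM-scaled. Correlations use log2 CPM with a prior count of 1, and SDs of log2 CPM were taken after adding 0.05 CPM. Groups come from the labels, and p-values measure the spread between these cultures. The code of the fits was checked on simulated counts with the same spread in every gene and state. These libraries do not have such an even spread, so error rates here were not tested.

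The members, lists and tests were chosen with earlier results of these data known. Named genes are the members, the genes with the smallest p in each list, the nearest neighbours of Cdkn2a, the 3 genes most like Cdkn2a, Cdkn2b, Cdkn2c and Mtap, and Prkd3. The clone number pairs cultures, since in WT it names the embryo. The deviations of same-numbered libraries correlated at -0.04 to 0.02 in WT and -0.28 to 0.14 with the label. Those of differently numbered libraries correlated at -0.03 to 0.06 in WT and -0.31 to 0.34 with the label. The ranges overlap, so the pairing rests on the clone number and not on likeness of expression. Columns of no listed sample numbered 0.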

Additional observations from a re-analysis of the deposited data

How the results depend on the processing

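The number of genes called in WT MEFs moved from 361 to 1361 with DESeq2, 198 with limma weighted per state, 868 at an adjusted p-value under 0.05, and 0 in the fit of all 13 libraries. When single libraries were left out it ran from 48 (without WT primary clone 3) to 743 (without immortalized line 5), and members called ran from 0 to 1, which was Cdkn2b without line 5. Genes called with the label Prkd3-/- moved from 0 to 190 with DESeq2 and 1 in the fit of all libraries, and those called in the interaction moved from 0 to 36 with DESeq2 and ran from 0 to 2 with a library left out. With the clone number as a replicate block, which pairs each line with its primary culture, 0 genes and 0 members were called in WT, and the block changed no other call on members. Directions turned only for values that passed no threshold. With limma, Cdkn2a with the label was -1.57, Cks1b -0.012, and Mtap in the interaction -0.055. With the replicate block, Cks1b was -0.083 and Mtap in the interaction -0.18. With lines 13 and 13a summed, Cks1b was -0.088, Skp2 -0.018, Kdm6b 0.032 and Mtap in the interaction -0.18. With libraries left out, the WT Log2FC ran from -0.091 to 0.32 for Cdkn1b, -0.40 to 0.012 for Mtap and -0.36 to 0.021 for Cdkn1a. With the label it ran from -0.50 to 0.64 for Cdkn2a, -0.0093 to 0.25 for Cdkn2d, -0.68 to 0.16 for Mtap, -0.53 to 0.085 for Ccnd3, -0.058 to 0.52 for Rbl1, -0.20 to 0.28 for Rb1, -0.39 to 0.42 for Cks1b, -0.21 to 0.37 for Skp2, -0.31 to 0.048 for Kdm6b and -0.23 to 0.54 for Amd1. In the interaction it ran from -1.43 to 0.19 for Cdkn2b and -0.49 to 0.37 for Mtap. The causes were not tested. The alternatives leaving line 13 out of member levels and of gene likeness were chosen after seeing the data.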

Other observations

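Besides Cdkn2a and Cdkn2b, the genes that fell furthest below all other libraries in line 13 were chosen after their values were seen. Svep1, a secreted matrix protein gene on chromosome 4, was at 1.26 CPM in line 13 against at least 158 CPM in the other 12 libraries, and Wasf3, an actin regulator, was at 0.115 CPM against at least 13.6 CPM. The imprinted noncoding RNAs Meg3 and Rian, neighbours on chromosome 12, were at 0.859 and 3.86 CPM against at least 41.6 and 147.8 CPM. Pappa, a protease of IGF binding proteins, was at 0.439 CPM against at least 18.1 CPM. These values rest on 1 library and carry no test.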
